A study of Mus musculus with 2 samples.

Results

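The genes described here are 46 writers, erasers and structural partners of histone and DNA modifications, measured in the embryonic mouse heart. They were chosen by name as a module of Polycomb, histone and DNA methylation enzymes. The rule uses no measured value, but the choice was made with earlier results of these data known. All 46 were found among the 43346 mouse genes in the gene tables of both libraries. The data are total RNA sequencing of 2 libraries of heart tissue from B6NCrl embryos at embryonic day 11.5, both sexes mixed. Replicate 1 was a pool of hearts from 109 embryos and replicate 2 was a heart sample for which the labels give no number of embryos. Both libraries received 10 ng of RNA extracted with the mirVana kit, with spike-in RNAs added, and the labels attach a SmartSeq protocol. B6NCrl is an inbred laboratory strain, and neither genotype nor treatment differed between the samples. There is 1 group of 2 libraries and no second condition, so levels are described with the spread over the libraries and no p-value is given. The libraries come from separately recorded biosamples that carry the same donor identifier, so the spread between them may be partly technical.

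Polycomb proteins keep developmental genes silent through a pair of complexes. Polycomb repressive complex 2 (PRC2) methylates histone H3 at lysine 27, and Polycomb repressive complex 1 (PRC1) ubiquitinates histone H2A and compacts chromatin. Opposing enzymes of the KMT2 family methylate H3 at lysine 4, a mark of promoters and enhancers, while other methyltransferases mark H3 at lysine 9 in silent chromatin or at lysine 36 in transcribed genes. Histone deacetylases remove acetyl groups, mostly as parts of co-repressor complexes. DNMT proteins methylate cytosine in CpG dinucleotides and TET dioxygenases oxidise that methyl group. In the embryonic heart several of these genes are known to be required for chamber growth and septation, among them Ezh2, Jarid2, Kmt2d, Hdac1, Hdac2 and Prdm16.

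The summed expected counts, which are estimated reads per gene, came to 37617442 in replicate 1 and 27642765 in replicate 2. A count of 3 in a whole library, the limit that a count of 0 allows, corresponded to 0.0871 and 0.119 CPM, for counting error only. CPM are counts scaled to the total over mouse genes, which was 34447169 in replicate 1 and 25261719 in replicate 2. The 2 libraries differed by more than sampling noise (a mean chi-square of 24.8 per gene over 16621 genes), so they were not copies of 1 library. Markers of cardiomyocytes defined the tissue: all 6 listed were detected, with a summed level of 19799 and 21494 TPM, a level per transcript length that sums to the same total in each library. Markers of endothelium (5 of 5), epicardium (5 of 5), mesenchyme (5 of 5), macrophages (5 of 5), neurons (4 of 5) and skeletal muscle (4 of 5) were detected at summed levels between 27.1 and 685 TPM. Embryonic red cells were abundant, with 45249 and 38055 TPM over 5 erythroid markers. In bulk tissue, a low level in all cells and a high level in a few cells cannot be told apart, and this applies to every level given.

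Nearly the whole module was expressed, and at the level of an ordinary gene. A TPM of 1 or more in both libraries was counted as detected, and 44 of 46 members (95.7%) met it, beside 12118 of 21474 protein-coding genes (56.4%). Because the members were chosen with earlier results of these data known, the higher share is a description and not a test. The exceptions were Cbx7 and Dnmt3l. The median member stood at 15.3 TPM ± 1.43 (SD, n = 2), with 16.6 TPM in replicate 1 and 14.6 TPM in replicate 2. The median of the detected protein-coding genes was 16.0 TPM, and 22 members lay above it. The middle of the members' range was narrower than that of the detected genes, with quartiles of 8.35 and 29.1 TPM against 6.13 and 40.2 TPM. Most members, 26, lay between 10 and 50 TPM, 14 lay between 1 and 10 TPM, and 4 reached 50 TPM. These 4 were Hdac2, Hdac1, Rnf2 and Hdac3, and only the first pair exceeded 100 TPM. All 46 together held 0.105% and 0.107% of the TPM of the libraries.

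**Figure D1:**
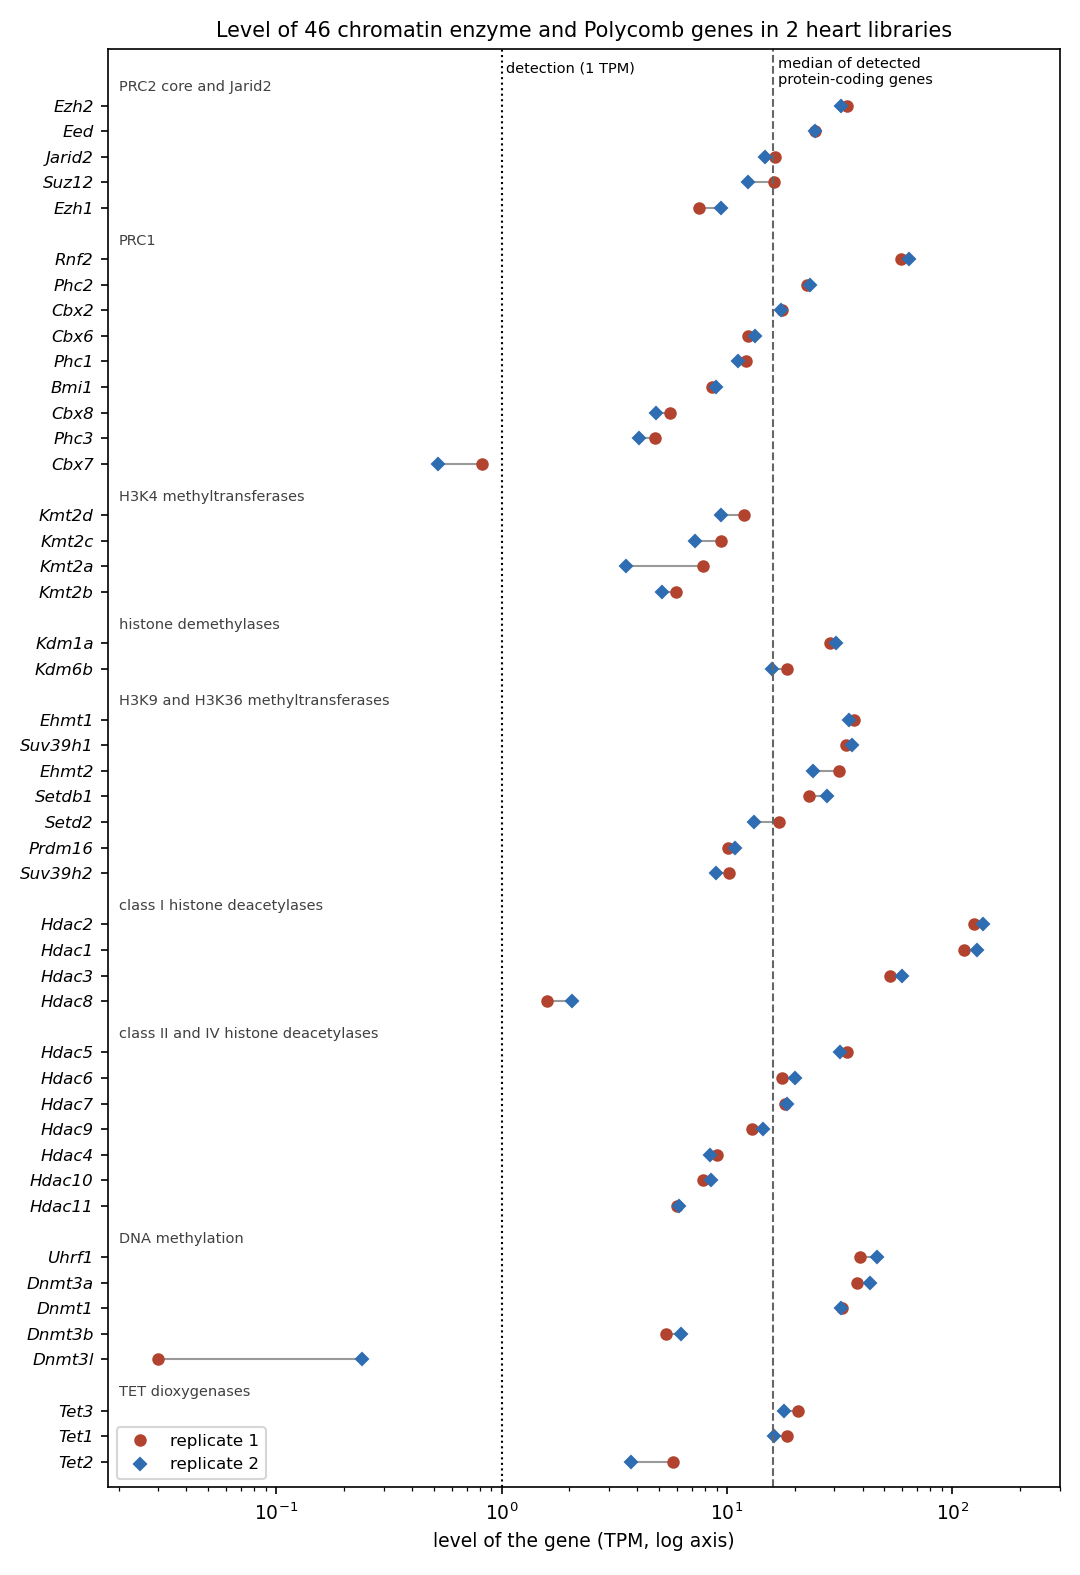
Level of each of the 46 genes in TPM (log axis) in replicate 1 (circles) and replicate 2 (diamonds), grouped by role; the dotted line marks the detection level of 1 TPM and the dashed line the median of detected protein-coding genes at 16.0 TPM. Hdac2, Hdac1, Rnf2 and Hdac3 lie at the right, and Cbx7 and Dnmt3l lie below the detection level in both libraries.

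Ranked by mean TPM, 33 of the 45 pairs of neighbours had ranges over the libraries that overlapped, and 12 did not, both at the ends of the order and in its middle (Dnmt1 above Kdm1a, Eed above Phc2). Hdac2 and Hdac1 overlapped with each other, and both lay above all other members. Rnf2 and Hdac3 formed the next overlapping pair, followed without overlap by Uhrf1 and Dnmt3a. At the low end, Hdac8, Cbx7 and Dnmt3l were each separated from their neighbour. The median coefficient of variation over the libraries was 8.88% for the detected members and 7.52% for detected protein-coding genes. It ranged from 0.0405% for Cbx2 to 53.0% for Kmt2a.

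**Figure D2:**
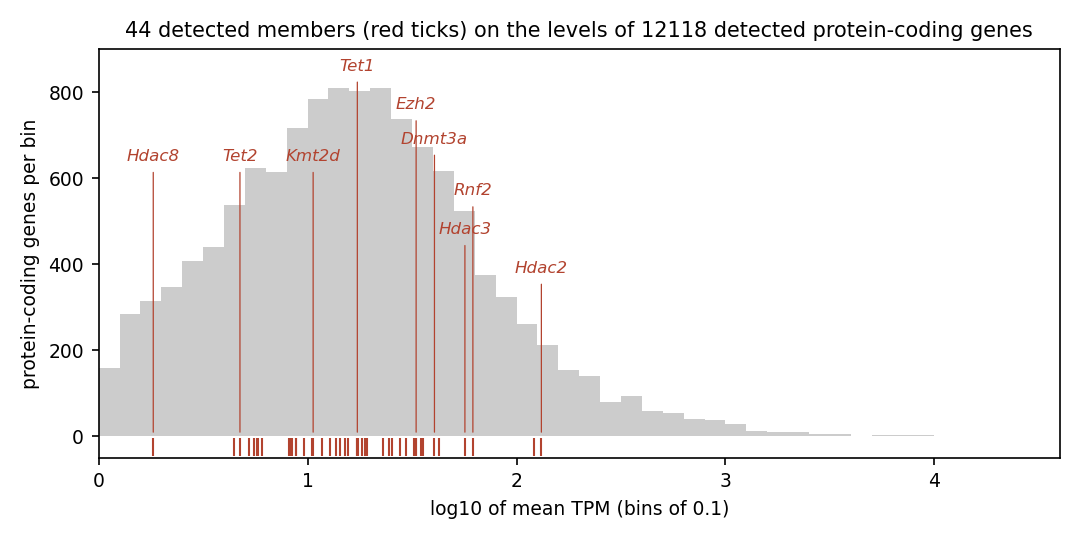
Histogram of the log10 of mean TPM for the 12118 detected protein-coding genes (grey, genes per bin of 0.1) with the 44 detected members as red ticks below the axis and 9 of them named. The members cover the middle of the distribution, from Hdac8 at 1.83 TPM to Hdac2 at 132 TPM, and none lies above that level.

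The DNA in front of the members' start sites was mostly rich in CpG, the dinucleotide that the DNMT and TET enzymes act on. RefSeq windows (mouse build GRCm38.p6) of 300 bases, 250 before and 50 after a start, were matched by symbol for 40 of 46 members, in 56 windows. Cbx2, Hdac1, Hdac3, Hdac10, Kdm6b and Kmt2b had none. The motif searched was CG, which reads the same on both strands and cannot overlap itself. Taking each gene's start with most CpG, the median was 30 CpG for the members, 22 for detected genes and 8 for all genes with a window. At least 15 CpG were present for 36 of the 40 members (90%), for 76.5% of detected genes and for 37.1% of all genes. The other 4 were Hdac9 with 3, Hdac8 and Dnmt3l with 6 each, and Phc1 with 9. A CpG count is a description of these letters and not a measure of methylation, which was not measured here. To let the range be read from the bases, the 250 bases before the start of Hdac2 (highest level of all members), Tet2 (most CpG), Hdac9 (fewest CpG) and Dnmt3l (lowest level) are given. They run 5′ to 3′ on the gene's strand, from RefSeq GRCm38.p6, with each CpG in capitals.
Hdac2: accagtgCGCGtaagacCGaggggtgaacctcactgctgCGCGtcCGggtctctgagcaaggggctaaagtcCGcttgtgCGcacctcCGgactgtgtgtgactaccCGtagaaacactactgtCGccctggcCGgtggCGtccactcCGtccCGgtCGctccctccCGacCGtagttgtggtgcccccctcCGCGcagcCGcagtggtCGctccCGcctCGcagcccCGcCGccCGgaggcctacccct
Tet2: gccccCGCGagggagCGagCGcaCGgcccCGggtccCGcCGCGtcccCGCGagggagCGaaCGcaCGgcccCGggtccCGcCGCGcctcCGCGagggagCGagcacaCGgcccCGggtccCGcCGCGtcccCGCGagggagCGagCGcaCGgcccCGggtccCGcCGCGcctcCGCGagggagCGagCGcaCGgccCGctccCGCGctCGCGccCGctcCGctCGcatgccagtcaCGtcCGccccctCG
Hdac9: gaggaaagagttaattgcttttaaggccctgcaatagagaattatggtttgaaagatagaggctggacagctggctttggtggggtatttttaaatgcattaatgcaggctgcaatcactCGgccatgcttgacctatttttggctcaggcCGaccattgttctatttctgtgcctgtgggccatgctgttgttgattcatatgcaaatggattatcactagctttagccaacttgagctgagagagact
Dnmt3l: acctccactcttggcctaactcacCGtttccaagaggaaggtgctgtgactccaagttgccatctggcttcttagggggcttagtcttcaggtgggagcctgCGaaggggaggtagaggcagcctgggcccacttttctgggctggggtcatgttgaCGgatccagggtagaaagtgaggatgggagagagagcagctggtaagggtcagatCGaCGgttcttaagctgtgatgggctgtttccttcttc
The printed stretches are chr10:36974294-36974543 (plus strand) for Hdac2, chr3:133544391-133544640 (minus strand) for Tet2, chr12:34528890-34529139 (minus strand) for Hdac9 and chr10:78042037-78042286 (plus strand) for Dnmt3l. They hold 27, 51, 2 and 5 CpG. The Tet2 stretch is thus dense in CpG and the Hdac9 stretch nearly free of it. Members of high and low level were found among those rich in CpG. The 4 members with under 15 CpG all lay below the median member level of 15.3 TPM. As many members lie below a median as above it, and members with at least 15 CpG lay on both sides. A link between CpG and level was not tested. Hdac2, the highest member, had 36 CpG in its window, and Dnmt3l and Hdac8, with 6 each, were among the 3 lowest. Tet2, with 57, stood at 4.75 TPM, Cbx7, with 33, was below detection, and Hdac9, with 3, stood at 13.7 TPM.

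The class I deacetylases, the catalytic subunits of the SIN3, NuRD, CoREST and NCoR co-repressor complexes, held the highest levels of the module. Hdac2 (ENSMUSG00000019777, chromosome 10, 36974544 to 37001889, plus strand) was measured at 125 and 138 TPM. Positions are those of mouse build mm10. Its close paralog Hdac1 (chromosome 4, 129516104 to 129542713, minus strand) was at 113 and 129 TPM. The pair was not apart: the difference was 1.09-fold, and replicate 2 was the higher library for both. A pair is called apart here where 1 gene was higher in both libraries by more than 0.58 on the log2 scale of TPM, the 95th percentile of the difference between the libraries over all detected protein-coding genes. Hdac3, the subunit of the NCoR complex, was at 53.2 and 60.1 TPM. Hdac8, a deacetylase that acts on cohesin, was the exception of the class at 1.59 and 2.06 TPM from 60 and 53 counts. Hdac3 was thus 31.2-fold above Hdac8 (4.96 on the log2 scale, and 6.13 in protein-coding transcripts alone).

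Among 16 other members of the deacetylase complexes, all were detected, with a median of 25.7 TPM. The highest were Mbd3, a NuRD subunit, at 126 and 112 TPM, the scaffold Sin3b at 110.3 and 110.1 TPM, and the co-repressor Ncor1 at 109 and 94.0 TPM. All 7 sirtuins, the NAD-dependent deacetylases, were detected, led by Sirt2 at 37.8 and 40.4 TPM, Sirt3 at 21.7 and 20.9 TPM and Sirt6 at 20.1 and 15.9 TPM.

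The class IIa deacetylases, which bind MEF2 factors and repress muscle genes, were led by Hdac5 at 34.2 and 31.9 TPM. Hdac4 was at 9.07 and 8.44 TPM, so that Hdac5 was 3.78-fold higher, with nearly the same ratio in both libraries. The log2 ratio of -1.92 for Hdac4 over Hdac5 was -1.28 in coding transcripts and -0.23 in counts without division by length, where the pair was not apart. Hdac7, known from endothelium, was at 18.04 and 18.44 TPM. Hdac9 was at 13.0 and 14.4 TPM, and Hdac7 and Hdac9 were not apart. The class IIb enzyme Hdac6, a cytoplasmic tubulin deacetylase, was at 17.5 and 20.1 TPM. Hdac10, a polyamine deacetylase, was at 7.83 and 8.52 TPM, 2.30-fold lower than Hdac6 (1.20 on the log2 scale, and 2.00 in coding transcripts). The class IV enzyme Hdac11 was at 5.99 and 6.16 TPM. None of these 7 passed 1.5-fold between the libraries.

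The 4 PRC2 genes listed here as core, Ezh2, its paralog Ezh1, Eed and Suz12, were all detected as RNA, at unequal levels. Ezh2, the methyltransferase of dividing cells, was at 34.1 and 32.1 TPM. Ezh1, the paralog that predominates in resting cells, was at 7.52 and 9.39 TPM, so that Ezh2 was 3.93-fold higher. Eed, the subunit that binds the methylated histone, was at 24.6 and 24.5 TPM and was not apart from Ezh2 (1.35-fold). Suz12, the scaffold subunit, was at 16.2 and 12.5 TPM, 2.33-fold below Ezh2, a call that ended in counts without division by length. Jarid2, an accessory subunit whose loss causes cardiac defects in mice, was at 16.3 and 14.8 TPM. The 5 listed markers of proliferation, summed, stood at 802 and 836 TPM in the same libraries.

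Of 8 other PRC2 subunits listed, 7 were found and all 7 were detected. The histone chaperones Rbbp7 (318 and 351 TPM) and Rbbp4 (244 and 235 TPM), which PRC2 shares with deacetylase complexes, were higher than every member of the module. Mtf2, a Polycomb-like subunit that binds unmethylated CpG islands, was at 57.3 and 61.0 TPM.

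PRC1 showed 1 high catalytic subunit and a steep order among its CBX proteins. Rnf2 (RING1B), the ubiquitin ligase, was at 59.0 and 64.6 TPM, while its paralog Ring1 was at 2.83 and 3.26 TPM, a 20.3-fold difference (4.35 on the log2 scale, and 5.04 in coding transcripts). Bmi1, a PCGF subunit that activates the ligase, was at 8.60 and 8.95 TPM. Bmi1 was not apart from its paralog Pcgf2, which was at 12.03 and 7.67 TPM and changed place with it between the libraries.

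The CBX subunits read the methylated histone, and Cbx2 was the highest at 17.48 and 17.47 TPM. Cbx6 was at 12.4 and 13.3 TPM and Cbx8 at 5.57 and 4.87 TPM. Cbx7 (chromosome 15, 79915807 to 79971119, minus strand), known as the main CBX subunit of embryonic stem cells, was below detection at 0.82 and 0.52 TPM from 83 and 30 counts. Cbx2 was 3.36-fold above Cbx8 and 26.8-fold above Cbx7, and Cbx6 was 19.6-fold above Cbx7. By the deposited posterior mean TPM, Cbx7 was at 2.04 and 2.24 TPM, above detection, and the log2 ratios fell from 4.74 to 3.004 for Cbx2 over Cbx7 and from 4.30 to 2.66 for Cbx6 over Cbx7. In coding transcripts the log2 ratio of Cbx2 over Cbx8 was 3.01 in place of 1.75. The counts of Cbx7 exceed the limit of 3 counts in both libraries, which covers counting error only. Part of them cannot be assigned to Cbx7 with certainty, because it shares exon bases with Apobec3.

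The polyhomeotic subunits, which polymerise through a SAM domain, were led by Phc2 at 22.7 and 23.4 TPM. Phc1 was at 12.2 and 11.2 TPM and Phc3 at 4.81 and 4.06 TPM. Phc2 was 1.97-fold above Phc1 and 5.21-fold above Phc3. Its place above Phc1 was no longer called in counts without division by length, and in RNA near full length, defined with the transcripts, Phc2 was the lowest, at 0.32 TPM beside 10.1 TPM for Phc1 and 2.83 TPM for Phc3. All 14 other PRC1 subunits listed were detected, the highest being Yaf2 (88.0 and 91.8 TPM), Scmh1 (49.2 and 53.8 TPM) and Pcgf5 (27.2 and 29.9 TPM). Of 4 genes of the BAP1 deubiquitinase, which removes the mark that PRC1 sets, 3 were detected, led by Bap1 (38.6 and 42.7 TPM), Asxl2 (15.02 and 14.17 TPM) and Asxl1 (10.1 and 8.78 TPM). Asxl3 was below 1 TPM in both libraries, at 0.92 and 0.79 TPM.

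**Figure D3:**
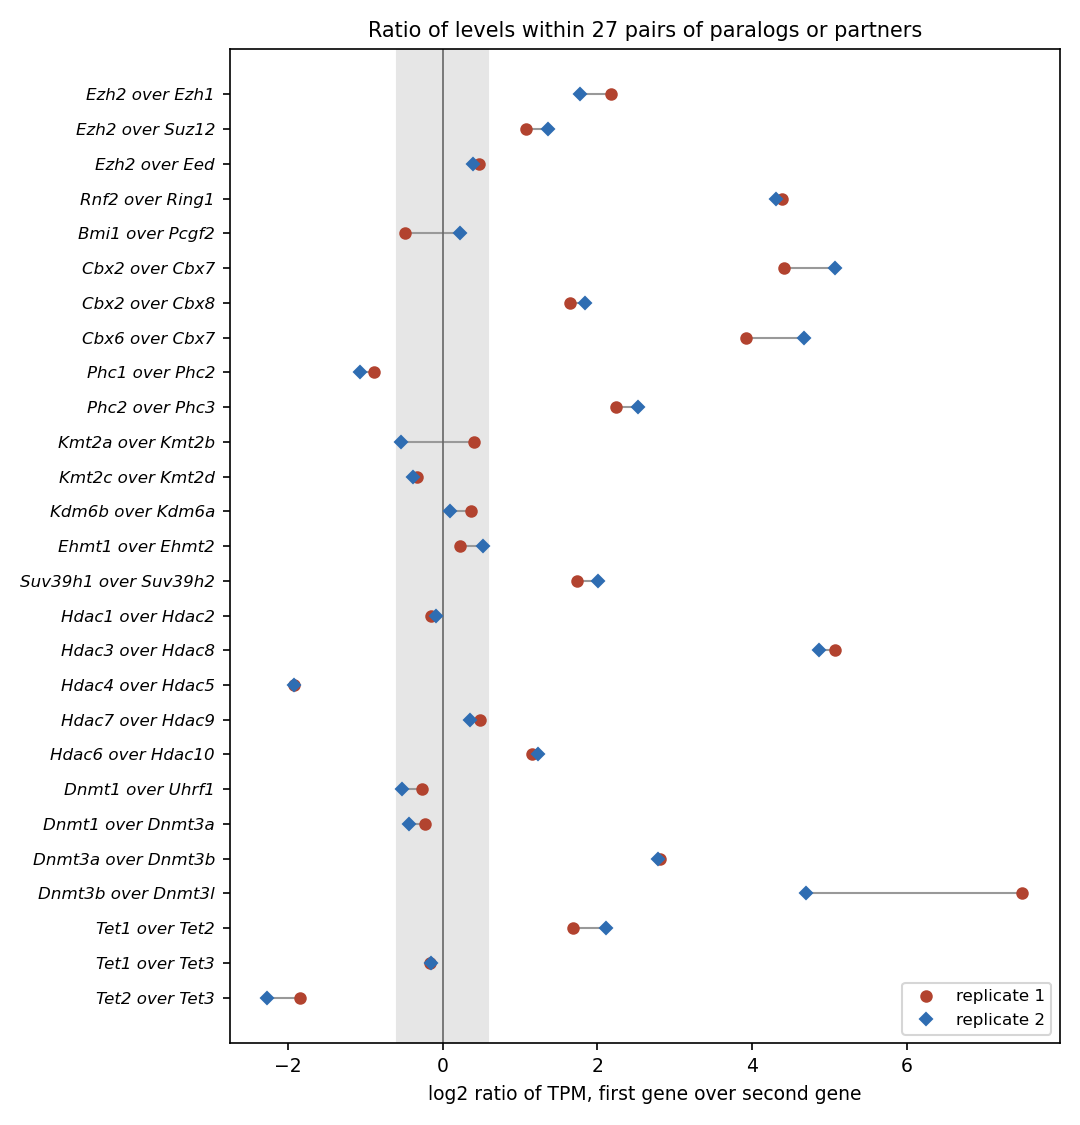
log2 ratio of TPM of the first over the second gene in 27 pairs of paralogs or partners, in replicate 1 (circles) and replicate 2 (diamonds); the grey band spans 0.58 on either side of 0. Pairs outside the band on 1 side in both libraries, 16 of 27, are called apart; Kmt2a over Kmt2b and Bmi1 over Pcgf2 change sign between the libraries.

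The 4 KMT2 enzymes, which methylate H3 at lysine 4, were the lowest group of writers, with a median of 7.02 TPM ± 1.75 (SD, n = 2). Kmt2d, the enhancer enzyme mutated in Kabuki syndrome, was at 11.9 and 9.38 TPM. Kmt2c, its paralog, was at 9.44 and 7.19 TPM and was not apart from it (1.28-fold). Kmt2b was at 5.95 and 5.18 TPM. Kmt2a (MLL1, an activator of Hox genes) was at 7.87 and 3.58 TPM, above Kmt2b in replicate 1 and below it in replicate 2. All 4 were lower in replicate 2, and of these only Kmt2a passed 1.5-fold in the comparison of the libraries below. In that comparison 49.9% of all genes were lower in replicate 2. All 11 other subunits of the COMPASS complexes around these enzymes were detected, with a median of 24.8 TPM, led by Dpy30 (123 and 120.3 TPM), Ash2l (49.0 and 58.4 TPM) and Hcfc1 (38.1 and 31.4 TPM).

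The methyltransferases for lysine 9 and lysine 36 ranged from 9.56 to 35.6 TPM. Ehmt1 and Ehmt2 (GLP and G9a), which form a dimer, were at 36.6 and 34.7 TPM and at 31.4 and 24.1 TPM, and were not apart (1.29-fold). Suv39h1, which acts in pericentric heterochromatin, was at 33.9 and 35.9 TPM, 3.66-fold above its paralog Suv39h2 at 10.2 and 8.94 TPM. In coding transcripts alone the log2 ratio of this pair was 3.18 in place of 1.87. Setdb1, which silences retroelements with TRIM28, was at 23.2 and 27.8 TPM. Setd2, the lysine 36 trimethylase, was at 17.0 and 13.2 TPM. Prdm16, a transcription regulator linked to cardiomyopathy, was at 10.2 and 10.8 TPM.

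Of 16 other histone methyltransferases, 15 were detected and Prdm9, the enzyme of meiotic recombination, was below 1 TPM at 0.91 and 0.76 TPM. The highest were Smyd2 (112 and 119.6 TPM), Smyd1 (121 and 101 TPM), a gene of heart and skeletal muscle, and Kmt5a (63.0 and 61.9 TPM).

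The demethylases of the module were Kdm1a (LSD1), a CoREST subunit, at 28.7 and 30.4 TPM, and Kdm6b (JMJD3), which removes the Polycomb mark, at 18.5 and 15.9 TPM. Kdm6b was not apart from Kdm6a (UTX), its X-linked paralog, which was at 14.3 and 14.8 TPM. Of 16 other demethylases, 15 were detected, the highest being Kdm5a (28.9 and 26.6 TPM), Kdm5b (25.3 and 26.4 TPM) and Kdm4a (22.8 TPM in each library). Kdm4d had 7 counts in replicate 1 and 0 in replicate 2.

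In the DNA methylation group the maintenance pair and Dnmt3a were at similar levels and the other members fell far below. Dnmt1, which copies methylation at replication, was at 32.4 and 32.0 TPM. Uhrf1, which brings it to hemimethylated DNA, was at 39.1 and 46.1 TPM and not apart from Dnmt1 (1.32-fold). Dnmt3a, a de novo methyltransferase, was at 37.8 and 43.1 TPM and not apart from Dnmt1 (1.255-fold).

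Dnmt3b, the de novo enzyme that predominates in the early embryo, was at 5.38 and 6.24 TPM. Dnmt3a was 6.97-fold higher than Dnmt3b, with log2 ratios of 2.81 and 2.79. Dnmt3l (chromosome 10, 78041947 to 78063622, plus strand), the catalytically inactive germ cell cofactor whose promoter bases are printed above, had 1 count in replicate 1 and 5 in replicate 2, or 0.03 and 0.24 TPM. With so few counts no fold is given against it, and it counts as apart from Dnmt3b.

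The TET dioxygenases Tet1 and Tet3 stood side by side. Tet3 was at 20.61 and 17.96 TPM and Tet1 at 18.5 and 16.1 TPM, a 1.11-fold difference with nearly the same ratio in both libraries. Tet2 (chromosome 3, 133463679 to 133545139, minus strand) was lower at 5.75 and 3.74 TPM, 3.72-fold below Tet1 and 4.15-fold below Tet3. The value of Tet1 depends on which transcripts are counted. All 10 listed readers of methylated DNA and factors of silent chromatin or base excision were detected, led by the heterochromatin protein Cbx3 (291 and 292 TPM), Trim28 (195 and 188 TPM) and Cbx5 (98.3 and 106 TPM).

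Few members passed 1.5-fold between the 2 libraries, as was the case for genes with similar counts. For this, counts scaled by TMM library sizes were compared, with 0.5 added to each, for genes with a summed count of at least 20. Of 45 members so compared, 3 passed 1.5-fold (6.67%), beside 14.5% of all 16621 genes. All 3 were higher in replicate 1, where 9.69% of all genes passed, and 0 were higher in replicate 2, where 4.84% did. The median log2 ratio of the members was 0.01, with 23 above and 22 below 0. Among genes with a summed count of at least 200, 2 of 43 members passed, both higher in replicate 1, beside 2.52% of all genes higher in replicate 1 and 1.46% higher in replicate 2. The members' share was thus close to that of genes with similar counts and is not a property of the module. This compares 2 libraries, without a replicate check.

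Kmt2a (chromosome 9, 44803355 to 44881296, minus strand) had 2868 and 1179 counts, a ratio of 1.77 with a 95% exact (Clopper-Pearson) counting interval of 1.66 to 1.90. Tet2 had 1491 and 684 counts, a ratio of 1.59 (1.45 to 1.74). Cbx7 had 83 and 30 counts, a ratio of 2.00 (1.32 to 3.18). The intervals cover counting error only, and those of Tet2 and Cbx7 include 1.5. At a smaller threshold, a log2 ratio of 0.32, 10 members passed, all higher in replicate 1: these 3 with Ehmt2, Kdm6b, Kmt2b, Kmt2d, Setd2, Suz12 and Tet3. Of all genes, 17.9% were higher in replicate 1 at that threshold and 12.8% higher in replicate 2. At a fold of 2 none of the members passed, beside 4.28% of all genes higher in replicate 1 and 1.80% higher in replicate 2.

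Some other measures moved between the libraries in the same direction, though not all did. Transcript length was one, though without a steady trend: the 275 protein-coding genes with transcripts of at least 8000 bases had a median log2 ratio of 0.15, and the 5 members of that length, Kmt2a and Tet2 among them, had 0.41. The medians of protein-coding genes were 0.07 under 1000 bases and 0.02 from 1000 to 2000 bases, and -0.04, -0.08, -0.08 and -0.01 in the bins between 2000 and 8000 bases. Nuclear and ribosomal DNA transcripts, 4 RNAs with Malat1 and Gm42418 among them, summed to 18525 TPM in replicate 1 and 11043 TPM in replicate 2. Neat1, also among the 4, went the other way in TPM, at 1.30 and 2.33. Markers of liver and yolk sac, all 6 past 1.5-fold, summed to 249.96 TPM in replicate 1 and 69.3 TPM in replicate 2, with none at 0. The erythroid markers also summed higher in replicate 1. The other marker sums were higher in replicate 2: cardiomyocytes, endothelium (250 and 288 TPM), epicardium, mesenchyme (583 and 685 TPM), macrophages, neurons, skeletal muscle and proliferation. The part of each in the differences of Kmt2a, Tet2 and Cbx7 was not tested.

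**Figure D4:**
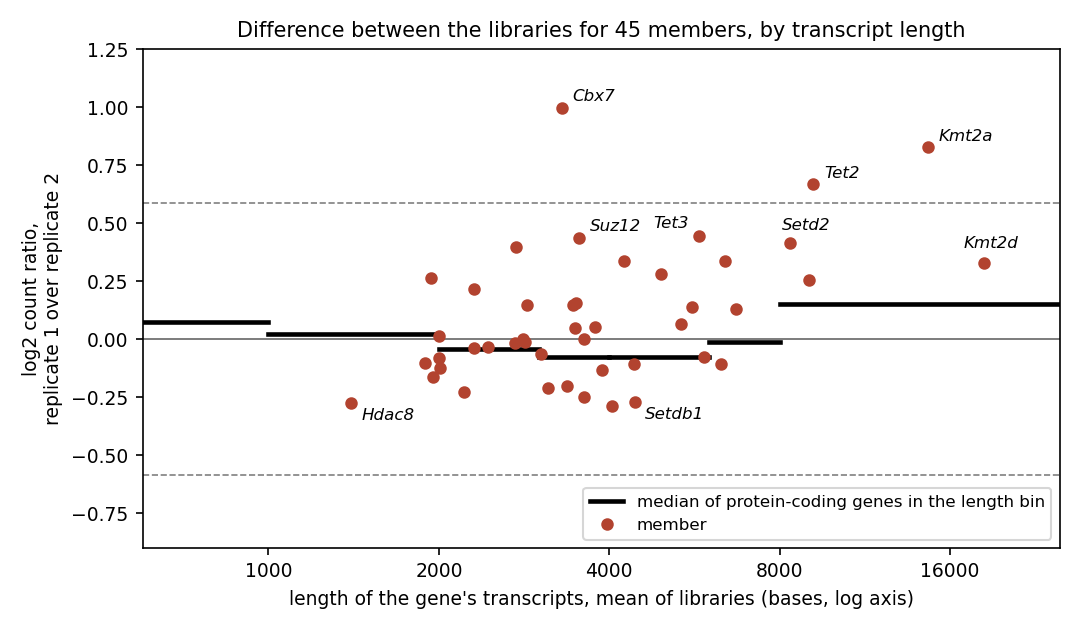
log2 ratio of scaled counts, replicate 1 over replicate 2, for 45 members (red points) against the length of their transcripts in bases (log axis); black bars are medians of protein-coding genes per length bin and dashed lines mark 1.5-fold. Cbx7, Kmt2a and Tet2 lie above the upper line, no member lies below the lower line, and the longest members lie above 0.

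The transcript tables showed that a gene's level was not always the level of its protein-coding RNA. For each of the 44 detected members, the transcript with the highest share of the gene's TPM, averaged over the libraries, was looked up in the GENCODE annotation. It was protein-coding, as was the leader in each library, for 38 members (86.4%), beside 91.6% of detected protein-coding genes. The median member had 7 transcripts in the tables and the median gene 4. In 41 members 1 transcript led in both libraries; the exceptions were Prdm16, Hdac5 and Dnmt3b. The same held for 91.8% of detected protein-coding genes.

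In 6 members another kind of transcript led by the averaged share. For Tet1 (chromosome 10, 62804570 to 62908996, minus strand) it was Tet1-202, a processed transcript of 3 exons with no coding sequence, at 55.9% and 49.2% of the gene's TPM. The full-length Tet1-206, which encodes 2039 amino acids, held 27.8% and 27.2%. In protein-coding transcripts alone, Tet1 was therefore below Tet3 by 0.96 on the log2 scale, apart in both libraries, and no longer apart from Tet2, with a log2 ratio of 0.82. Tet2 has 1 transcript in the tables, a coding one, so this scale could lower Tet1 but not Tet2. This alternative was added after the data had been seen.

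For Suv39h2 the leading transcript was Suv39h2-204, annotated for nonsense-mediated decay, at 70.6% and 56.8%. A transcript of the same kind, Hdac8-205, led Hdac8 at 37.0% and 46.7%, close to the coding Hdac8-201 at 36.4% and 44.6%. For Hdac7 it was Hdac7-211, a retained intron with 2 exons, at 50.82% and 44.96%. For Cbx8 it was the processed transcript Cbx8-202, at 58.3% and 59.3%. For Prdm16 the shares moved between the libraries: the processed transcript Prdm16-212 held 13.5% in replicate 1 and 44.5% in replicate 2. In replicate 1 the protein-coding Prdm16-207 led, at 25.8%, and it held 6.37% in replicate 2. By TPM a short form can lead on fewer counts, as in Tet1, Cbx8, Hdac8 and Prdm16. Tet1-202 had 415 and 225 counts, and Tet1-206 had 2090 and 1258. Cbx8-202 had 64.0 and 40.1, and the coding Cbx8-201 had 231 and 139. Hdac8-205 had 9.83 and 11.4, and Hdac8-201 had 30.25 and 34.05. Prdm16-212 had 20.2 and 50.1, and the coding Prdm16-204 had 349.5 and 362. For Suv39h2 the order by counts changed between the libraries: Suv39h2-204 had 458 and 229, and the coding Suv39h2-201 had 284 and 249. Hdac7-211 had 385 and 246, more than any single coding form. The coding Hdac7-204 had 361 and 193, Hdac7-208 had 334 and 207, and Hdac7-201 had 181 and 232. Together these coding forms had more counts than Hdac7-211 in both libraries. Where transcripts share exons, the division of reads between them is an estimate in the deposited tables.

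Members also differed in how much of their RNA encoded a protein near full length, taken as at least 80% of the longest coding sequence of the gene in GENCODE M21. The median share was 81.0% for the detected members and 94.0% for detected protein-coding genes, and 12 of 44 members were under 50%, beside 16.1% of detected protein-coding genes. The abundant class I enzymes were among the most complete, with 98.9% for Hdac2, 93.5% for Hdac1 and 90.3% for Hdac3. Rnf2 had 94.8%, Eed 96.0% and Uhrf1 96.5%. Dnmt1 had 100%, with only forms near full length listed for it.

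Phc2 was at the other end, with 1.39% near full length. Its leading transcript Phc2-202, at 77.2% and 83.6%, encodes 323 of the 850 amino acids of the longest form. By RNA near full length, Phc2 moved from rank 16 to rank 44 of the 46 members, at 0.32 TPM. Kmt2c was led by Kmt2c-208, at 40.9% and 42.8%, which encodes 1524 of 4904 amino acids. Kmt2b had 13.7% near full length.

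Hdac9 was counted in the files through a single transcript, Hdac9-201, where GENCODE M21 lists 10 for the gene. This transcript encodes 588 of 1067 amino acids, so the share near full length is 0 by construction of the table. Whether reads of longer forms were assigned to it was not tested. Setd2 and Tet2 likewise have 1 transcript in the tables of 10 in GENCODE M21, so that their share of 100% is fixed in the same way. Dnmt1 has 3 of 7, all coding and near full length, so its 100% is fixed as well.

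Dnmt3a and Dnmt3b each had more than 1 coding form. The full-length Dnmt3a-201 (908 amino acids) held 51.9% and 48.6%, and Dnmt3a-203 and Dnmt3a-205, which both encode 689 amino acids, held 16.4% and 17.5% and 7.08% and 15.9%. For Dnmt3b, Dnmt3b-206 (776 amino acids) held 58.8% in replicate 1 and 22.3% in replicate 2, and Dnmt3b-201 (860 amino acids) held 27.2% and 24.0%. Kmt2a, which differed between the libraries as a gene, also differed in form: Kmt2a-203, which encodes 1438 amino acids, held 24.4% in replicate 1 and was listed at 0 in replicate 2.

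**Figure D5:**
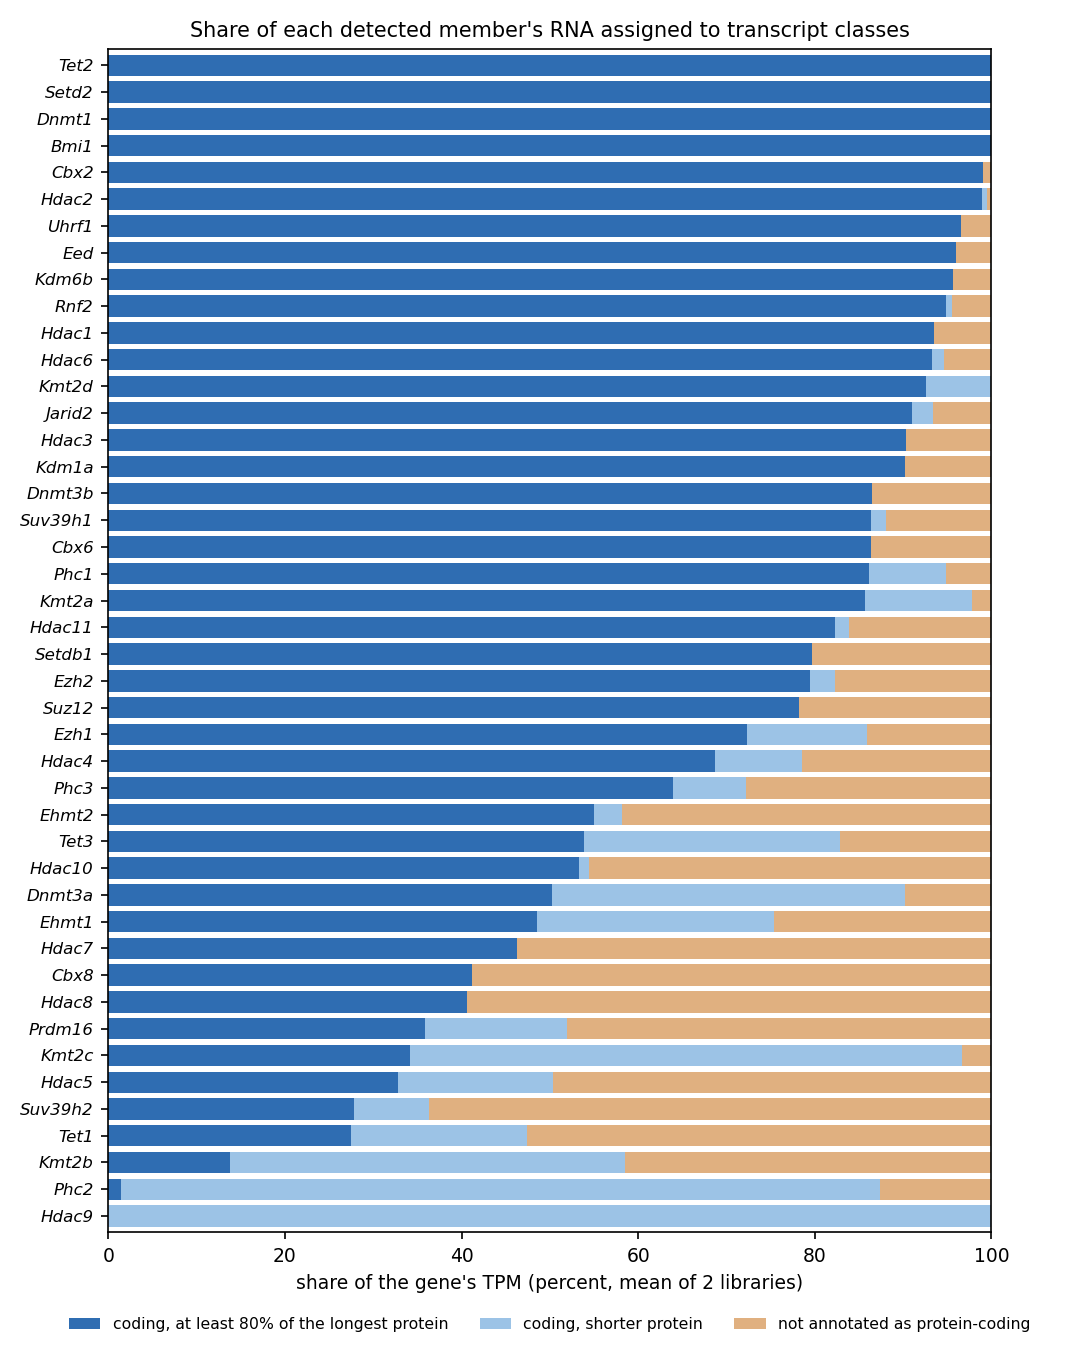
Share of each detected member's TPM (percent, mean of the 2 libraries) in coding transcripts near full length (dark blue), other coding transcripts (light blue) and transcripts not annotated as protein-coding (tan), ordered by the first. The bars run from 100% for Tet2, Setd2, Dnmt1 and Bmi1 down to 1.39% for Phc2 and 0 for Hdac9. Those of Tet2, Setd2 and Hdac9 rest on a single transcript in the tables, and that of Dnmt1 on 3, all near full length.

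Some members share exon bases with another annotated gene, and the strand setting of the counting is not given in the sources used here. This held for 18 members, with over 10% of the member's exon bases shared in 2. Hdac4 shared 22.4% with the lincRNA Gm26720, which was at 0.39 and 0.13 TPM, and Suv39h1 shared 14.6% with the antisense gene Gm14820, at 0.09 and 0.10 TPM. Cbx7 shared 1.54% with Apobec3 on the other strand, which was at 20.95 and 17.06 TPM, so part of the few Cbx7 counts cannot be assigned with certainty.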

How the data were processed

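Total RNA of 2 libraries of 1 group was measured. The authors deposited, per the file headers, expected counts and TPM for each gene and transcript, and for each transcript its percent of the gene's TPM; posterior mean TPM stands beside them. Per the files deposited with each library the build is mm10 with annotation M4; the sources used here name no aligner, quantifier or strand setting (not given). Gene IDs were given symbols from GENCODE M21 (42462 of 43346 matched), and the transcripts' kinds come from M21, so forms added after M4 carry no value.

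The rule for the members names genes and uses no value, but the members and lists were chosen with earlier results of these data known. All members are named, with values for pairs, for members past the fold, and for the 3 highest and 3 lowest; of other lists, the 3 highest genes and those under 1 TPM in a library. Expected counts were rounded, 0.5 was added, and libraries were scaled by TMM (edgeR 4.0.16, R 4.3.3), with DESeq2 1.42.0 size factors as an alternative. Genes with a summed count under 20 were left out of ratios. The ratio and its calls were tested on simulated data with sampling noise only. The real libraries differed by more than that, so the simulation checks the calculation and not how often real genes pass. TPM depends on the other genes in a library, globin genes among them, and on the estimated lengths. Depth was 37617442 and 27642765 counts, and intervals cover counting error only. CpG was counted in RefSeq windows; for 50 of 56 windows the last 30 bases lie in a GENCODE transcript of the gene on its strand. Alternatives were other scalings, filters, folds, transcript classes and leaving out each library.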

Additional observations from a re-analysis of the deposited data

How the results depend on the processing

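All results in coding transcripts or in those near full length were added after the data had been seen. The number of members detected stayed between 39 and 45 of 46 under all 7 alternatives, with Cbx7 detected by posterior mean TPM (2.14 TPM). The median member level was 14.6 to 16.6 TPM with 1 library left out. It was 23.4 when TPM was rescaled over nuclear protein-coding genes without globin genes, 50.2 as CPM without length, 12.4 TPM in coding transcripts and 10.3 TPM in those near full length; these are other scales or subsets of the same RNA. The 3 members past 1.5-fold became 1 (Kmt2a) with TPM ratios and 1 added, 1 (Kmt2a) in coding transcripts, 0 at a fold of 2 (4.28% and 1.80% of all genes higher in replicate 1 and in replicate 2) and 10 at a log2 ratio of 0.32 (17.9% and 12.8%), and stayed 3 under DESeq2 size factors and total counts. Leaving out a library gives no ratio. Pairs apart numbered 16 to 18, and no pair called apart changed direction in the alternatives applied to pairs. RNA near full length was not among these, and on it Phc2 (0.32 TPM) fell below Phc1 (10.1 TPM) and Phc3 (2.83 TPM). Counts without length ended the calls for Ezh2 over Suz12, Phc2 over Phc1 and Hdac5 over Hdac4, and set apart Ezh2 over Eed (0.65), Bmi1 over Pcgf2 (1.10), Kmt2a over Kmt2b (1.73) and Kmt2d over Kmt2c (-1.40 for Kmt2c over Kmt2d); this scale keeps the genes' lengths. Coding transcripts alone ended Tet1 over Tet2 and set Ehmt1 above Ehmt2 (0.75 on the log2 scale), Hdac9 above Hdac7 and Tet3 above Tet1; Tet2 and Hdac9 have 1 transcript each in the tables, so only their partners could move. Members led by a coding transcript numbered 38 or 39, and 34 when the leading form had to be near full length. No paired analysis was possible because there is 1 group. Depth limits Dnmt3l (1 and 5 counts), Cbx7 (83 and 30) and Hdac8 (60 and 53).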
